A study of Homo sapiens with 4 samples.

Results

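The extracellular matrix genes and their receptors described here are the collagens and laminins on one side and the integrins on the other. They were taken by symbol. The rule took every COL symbol with an A chain number, the laminin alpha, beta and gamma chains, and the integrin alpha and beta subunits. It used no values, but it was set with earlier results of these data known. The rule found 82 of the 26364 gene symbols counted. Of these, 56 were matrix genes (44 collagens and 12 laminins) and 26 were receptor genes. All values come from RNA sequencing of Ishikawa cells, a line derived from a human endometrial adenocarcinoma, in which the estrogen receptor gene ESR1 carries the ligand-binding domain mutation Y537S. Every library came from a mutant clone, so the mutation was shared by all groups and was not itself compared. The DMSO group had 2 libraries given the vehicle at 0.1% for 8 h, and the E2 group had 2 given 10 nM estradiol (E2) for 8 h, all after at least 5 days in medium stripped of hormones. Each group held 1 library of each of 2 clones. The count columns carried the tags A4 and B212, which are taken as the names of the clones but could not be linked to the clone numbers 1 and 2 of the labels. Each tag is a single clone, so a difference between A4 and B212 is one between these lines of cells and says nothing about mutant cells in general.

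Collagens are triple helices of 3 alpha chains. Fibrillar types such as type I give interstitial tissue its strength, whereas type IV forms the sheet-like network of the basement membrane on which epithelial cells rest. Laminins are trimers of an alpha, a beta and a gamma chain and form the other basement membrane network. Integrins are heterodimers of an alpha and a beta subunit that span the cell membrane and hold cells to these proteins. ITGB1 is the common partner of the collagen-binding and most laminin-binding alpha subunits, and ITGB4 pairs with ITGA6 in the hemidesmosome, the anchor of epithelial cells to laminin-332. In the endometrium a basement membrane separates the glandular epithelium from the stroma, and the alpha V beta 3 integrin is known for its appearance in the receptive endometrium.

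The 6 type IV genes lie as 3 head-to-head pairs, each sharing the DNA between a start on the minus strand and a start on the plus strand. That stretch is shown for each pair because the pairs differed between the clones in opposite directions, and the bases before the start are shown for COL5A1, COL15A1 and ITGB8, whose values differed widely between them or with E2. Sequences are from the RefSeq promoter table of build GRCh38.p14, read on the plus strand, and 58 of the 82 genes had a window there. Capitals mark a GC box (GGGCGG) or a CCAAT box on either strand. The COL4A1 and COL4A2 stretch is the whole 126 bases between the starts. The other pairs had 418 (COL4A4 and COL4A3) and 379 (COL4A6 and COL4A5) bases between the starts, of which the 250 next to the plus-strand start are given.
COL4A1 and COL4A2, chr13:110307158-110307283: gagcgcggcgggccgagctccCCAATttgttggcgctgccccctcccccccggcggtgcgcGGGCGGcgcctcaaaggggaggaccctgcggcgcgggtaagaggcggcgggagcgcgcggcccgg
COL4A4 and COL4A3, chr2:227164374-227164623: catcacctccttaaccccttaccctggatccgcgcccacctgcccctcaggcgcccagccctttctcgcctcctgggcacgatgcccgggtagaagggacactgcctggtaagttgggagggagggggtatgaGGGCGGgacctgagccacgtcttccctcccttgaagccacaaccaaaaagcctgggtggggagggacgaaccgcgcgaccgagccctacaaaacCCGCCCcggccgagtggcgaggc
COL4A6 and COL4A5, chrX:108439588-108439837: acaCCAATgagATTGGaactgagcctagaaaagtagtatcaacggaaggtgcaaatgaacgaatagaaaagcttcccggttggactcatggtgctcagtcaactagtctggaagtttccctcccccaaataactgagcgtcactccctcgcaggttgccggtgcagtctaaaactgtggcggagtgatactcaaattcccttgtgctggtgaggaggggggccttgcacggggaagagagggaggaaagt
COL5A1, chr9:134641553-134641802: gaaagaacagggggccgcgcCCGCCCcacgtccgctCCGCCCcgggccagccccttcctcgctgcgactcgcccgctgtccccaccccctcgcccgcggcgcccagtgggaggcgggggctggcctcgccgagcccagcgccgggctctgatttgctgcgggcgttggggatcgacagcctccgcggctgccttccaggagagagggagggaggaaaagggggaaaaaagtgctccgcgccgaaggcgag
COL15A1, chr9:98943657-98943906: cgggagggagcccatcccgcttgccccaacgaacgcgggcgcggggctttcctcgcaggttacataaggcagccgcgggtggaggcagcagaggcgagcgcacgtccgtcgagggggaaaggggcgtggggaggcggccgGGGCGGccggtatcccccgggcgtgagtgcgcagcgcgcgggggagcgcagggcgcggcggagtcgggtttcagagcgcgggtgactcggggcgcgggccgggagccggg
ITGB8, chr7:20330650-20330899: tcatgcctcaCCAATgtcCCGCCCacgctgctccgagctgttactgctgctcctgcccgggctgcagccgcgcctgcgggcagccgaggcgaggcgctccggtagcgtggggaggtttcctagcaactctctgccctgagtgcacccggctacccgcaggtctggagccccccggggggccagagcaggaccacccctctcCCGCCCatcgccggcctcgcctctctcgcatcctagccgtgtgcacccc

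These stretches ranged in GC content from 51.2% between COL4A6 and COL4A5 to 80.16% between COL4A1 and COL4A2. The COL4A1 and COL4A2 stretch held 1 GC box and 1 CCAAT box, the COL4A4 and COL4A3 stretch 2 GC boxes, and the COL4A6 and COL4A5 stretch 2 CCAAT boxes and no GC box. Over the 300-base windows (250 bases before the start and 50 after), 32 of the 58 windows held a GC box, against 44.59% of all 27305 windows, and 14 held a CCAAT box, against 35.7%. The letters TATAAA were in 6 windows, including those of COL6A2, COL7A1 and ITGA6, against 11.95% of all. The estrogen response element half-site GGTCA was in 15 of the 58, against 37.75%. The full palindrome GGTCANNNTGACC, which contains that half-site on each strand, was in none of the 58 and in 0.06592% of all windows. All motifs were searched on both strands, and such letter matches describe the window only.

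The 4 libraries held 71575816 to 85222856 counts. Genes entered the tests when they passed edgeR's filter on low counts: 62 of the 82 did, namely 41 matrix genes (31 collagens and 10 laminins) and 21 integrins. The other 20 reached at most 18 counts in any library. They were COL5A3, COL6A3, COL6A5, COL6A6, COL8A1, COL10A1, COL11A1, COL11A2, COL17A1, COL19A1, COL20A1, COL22A1, COL24A1, LAMA1 and LAMB4 among matrix genes and ITGA8, ITGAD, ITGAL, ITGAM and ITGAX among integrins. Markers of gland-type epithelium were abundant: KRT8, KRT18, KRT19, EPCAM, CDH1, CLDN4 and PAX8 summed to 2231 to 3028 CPM (counts scaled to the library total, after edgeR's TMM factors). PECAM1 (endothelium) and CD3E (T cells) had 0 counts in every library, and DCN and LUM (fibroblasts) had at most 5.

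Mean levels of the tested matrix genes ran from 0.0114 (LAMA2) to 152 (COL6A1) CPM per kb of transcript, the scale used wherever levels of genes are compared. Type VI collagen, which forms beaded filaments next to basement membranes, led the list. COL6A1 stood at 159 (DMSO) and 133 (E2) CPM per kb in A4 and at 162 and 154 in B212, the highest matrix gene in every library. COL6A2, its partner chain, stood at 82.6 and 67.8 in A4 and at 87.7 and 79.4 in B212. The ratio of COL6A1 to COL6A2 was 1.85 to 1.96 in all 4 libraries. COL6A3, the chain that completes the usual type VI trimer, had 12, 10, 3 and 3 counts in the same order (A4 DMSO, A4 E2, B212 DMSO, B212 E2) and was not tested.

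COL9A2, a chain of the fibril-associated type IX collagen best known from cartilage, came next at 81 and 66.5 CPM per kb in A4 and 99.3 and 79.3 in B212. LAMC1, the gamma chain of most laminins, stood at 70.3 and 64.6 in A4 and 72 and 62.8 in B212. LAMC1 was below COL9A2 and COL6A2 in every library, while the order of COL9A2 and COL6A2 changed between libraries. LAMB3, the beta chain of laminin-332, followed at 37.5 to 42.5 CPM per kb, and was above LAMB1 in every library, which stood at 31 to 39.3.

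Laminin chains were present at unequal levels. LAMC1 made 31.3% to 33.7% of the summed laminin level per kb, LAMB3 17.9% to 19.6% and LAMB1 16.2% to 17.4%. Among alpha chains, LAMA5 (the alpha chain of laminin-511) made 8.59% to 11.7% and LAMA3 (the alpha chain of laminin-332) 1.2% to 2.35%. LAMA1, the alpha chain of the classical embryonic laminin, had 2 counts in the E2 library of A4 and 0 in the others. LAMB3 exceeded LAMA3 per kb by 8.11 to 16.2 times. Type I collagen was far more unequal: COL1A1 exceeded COL1A2 per kb by 89.7 to 92.5 times in the 4 libraries.

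Among integrins, the beta 1 subunit ITGB1 was highest in every library, at 265 and 266 CPM per kb in A4 and 215 and 208 in B212, which was 67.6% to 78.9% of all beta subunits. ITGAV, the alpha V subunit that pairs with several beta chains to bind RGD motifs, stood at 48.8 and 53 in A4 and 52.7 and 50.3 in B212. ITGA6, a laminin-binding alpha subunit, stood at 49.9 and 49.5 in A4 and 30.4 and 36.7 in B212. In A4 the values of these alpha subunits overlapped, and in B212 ITGAV was above ITGA6 in both libraries. ITGB4 followed at 17.8 to 36.3 CPM per kb and ITGB8, a partner of ITGAV in activating latent TGF-beta, at 8.98 to 33.8; ITGB4 was the higher in A4 and ITGB8 in B212. Transcript lengths were those of 1 reference transcript a gene. With the median length of a gene's transcripts instead, LAMB1 replaced LAMB3 and ITGB5 replaced ITGB4 among the 5 highest.

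**Figure D1:**
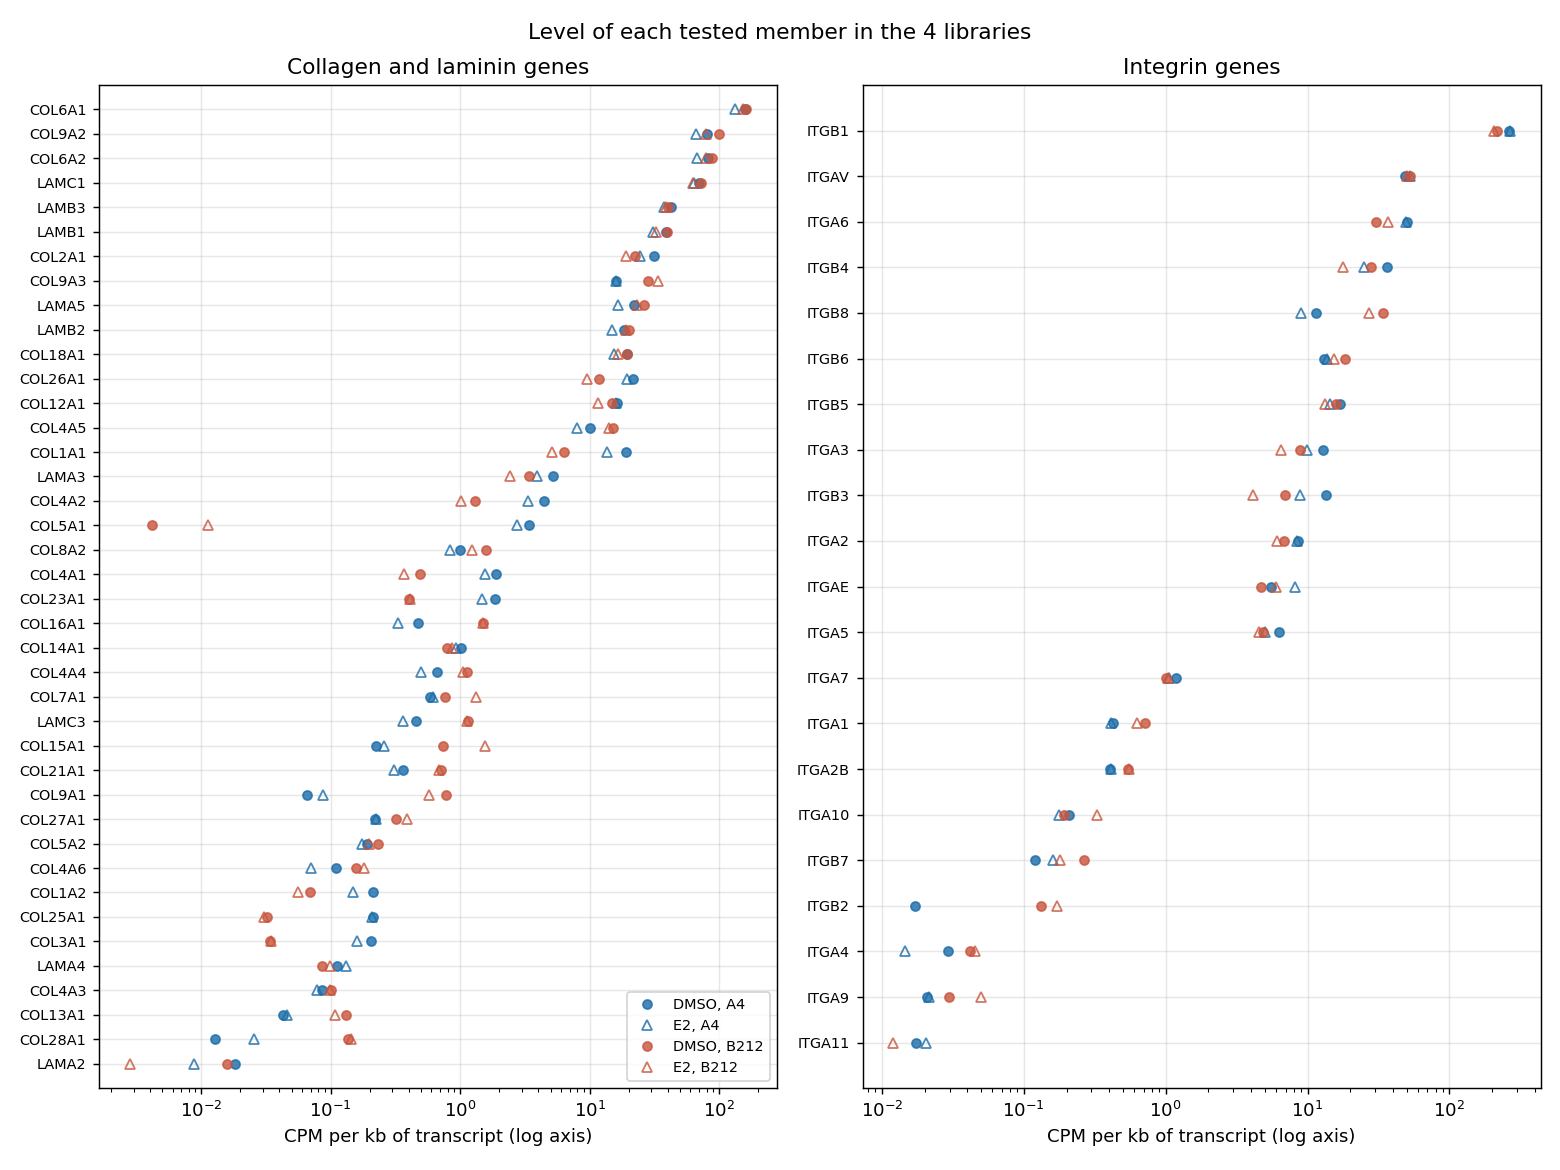
CPM per kb of transcript (log axis) of 40 of the 41 matrix genes (left) and the 21 integrins (right) that were tested, with 1 point for each library (circles DMSO, triangles E2; blue A4, red B212). COL6A1 and ITGB1 top the panels, the points of COL5A1 split by clone, and the 2 counts of 0 (ITGB2 in A4 with E2, ITGA11 in B212 with DMSO) cannot be drawn on a log axis.

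The matrix genes separated the 2 clones. With treatment as a covariate, edgeR's quasi-likelihood test called 30 of 41 matrix genes between B212 and A4 (17 higher and 13 lower in B212, Benjamini-Hochberg adjusted p under 0.05 over all genes). Of all 15599 genes tested, 51.0% were called (25.2% higher and 25.8% lower; with library sizes alone, 4760 of 7936 calls were higher). A call together with a change of at least 2-fold was made for 15 of 41 matrix genes (7 higher, 8 lower), against 11.0% of all genes. The collagens gave 25 calls of 31 and the laminins 5 of 10. The median absolute log2 fold change was 0.95 for collagens and 0.32 for laminins, against 0.28 over all genes. Every one of the 43 members called between the clones, integrins included, differed in the same direction in the DMSO pair and in the E2 pair. The fit takes disagreement between those pairs as its error, so called genes were nearly bound to agree, and this is no separate support. The spread that enters these p-values is that between libraries of the same clone after treatment is fitted, with 1 library per clone and treatment, and the labels do not say whether those were separate cultures. In RNA from whole cultures, fewer cells of a type and less RNA per cell cannot be told apart.

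Fibrillar collagens were mostly lower in B212: 5 of 7 tested were called lower and 1 higher, against 25.8% and 25.2% of all genes. Their median log2 fold change was -1.51 against 0.00 over all genes, and COL5A1 is among the 5. COL5A1, whose type V chain starts and regulates fibrils, had 2098 (DMSO) and 1917 (E2) counts in A4 and 3 and 7 in B212. It was present in one clone and near the floor in the other, and it passed the count filter through A4 alone. The ratio of A4 to B212 was 790 with vehicle (95% counting interval 270 to 3835) and 230 with E2 (111.4 to 573). These exact intervals cover counting error only. COL5A2, the partner chain of COL5A1 in type V collagen, did not split this way: it stood at 1.34 and 1.24 CPM in A4 and 1.64 and 1.4 in B212 (log2 fold change 0.24 ± 0.2 SE, adjusted p = 0.341 by edgeR). The bases before the start of COL5A1 are those printed above.

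COL1A1, the major chain of type I collagen, stood at 128 and 92.4 CPM in A4 and 42.4 and 34.5 in B212. The clones did not overlap, and the log2 fold change was -1.51 ± 0.0748 (SE; adjusted p = 1.28e-12 by edgeR). COL1A2 lay on the same side at far lower values, 1.15 and 0.804 CPM in A4 and 0.375 and 0.3 in B212, with a log2 fold change of -1.52 ± 0.291 (adjusted p = 0.000206). COL3A1, the type III chain, had 83 and 72 counts in A4 and 16 and 14 in B212 (-2.40 ± 0.325, adjusted p = 4.11e-06). COL2A1, the main collagen of cartilage, was lower by less, at 160 and 123 CPM in A4 and 113 and 96.3 in B212 (-0.43 ± 0.0702, adjusted p = 4.08e-05). COL27A1 was the fibrillar gene higher in B212 (0.67 ± 0.169, adjusted p = 0.00262).

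The type IV pairs split by pair. COL4A1 stood at 12.5 and 10.3 CPM in A4 and 3.22 and 2.46 in B212, and COL4A2 at 29.1 and 21.7 against 8.43 and 6.6. Both were lower in B212, with log2 fold changes of -2.01 ± 0.12 and -1.75 ± 0.0939 (adjusted p = 2.57e-11 and 4.59e-12). COL4A5 was higher in B212, at 65.1 and 51.9 CPM in A4 and 97.9 and 91.2 in B212 (0.70 ± 0.0749, adjusted p = 1.79e-07). COL4A6 stood at 0.737 and 0.475 against 1.07 and 1.23 (0.93 ± 0.264, adjusted p = 0.00608). COL4A4 was higher as well, at 6.69 and 5.03 CPM in A4 and 11.3 and 10.6 in B212 (0.91 ± 0.114, adjusted p = 1.61e-06).

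COL4A3, the partner of COL4A4, did not pass the test, with 51, 52, 69 and 59 counts and a log2 fold change of 0.28 (95% interval -0.27 to 0.83). Each pair had a higher and a lower gene, and the higher one was the same in every library. COL4A2 exceeded COL4A1 per kb by 2.14 to 2.74 times, COL4A4 exceeded COL4A3 by 6.42 to 11.3 times and COL4A5 exceeded COL4A6 by 77.4 to 114 times. The network built from the COL4A1 and COL4A2 chains is the one found in nearly all basement membranes, while the other chains are confined to a few tissues.

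**Figure D2:**
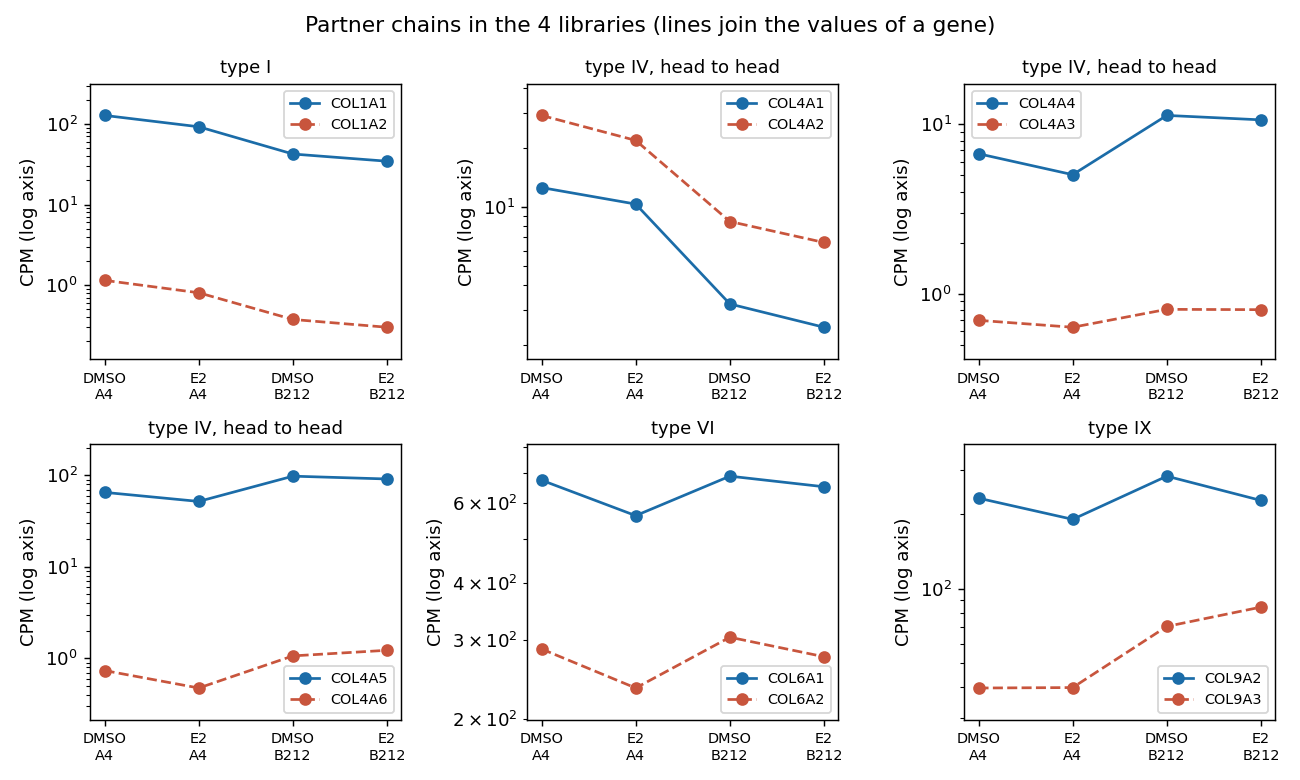
CPM (log axis, own scale in each panel) of 6 pairs of partner chains in the 4 libraries, in the order A4 DMSO, A4 E2, B212 DMSO, B212 E2, with lines joining the values of a gene. COL1A1 with COL1A2 and COL4A1 with COL4A2 run parallel and are lower in B212, COL4A5, COL4A6 and COL4A4 are higher there, and COL6A1 and COL6A2 were not called.

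Collagens that sit on fibrils or in membranes moved in both directions. Of the fibril-associated types, 5 of 7 were called higher and 1 lower, against 25.2% and 25.8% of all genes. COL9A1 had 23 and 34 counts in A4 and 314 and 200 in B212 (log2 fold change 3.11 ± 0.231, adjusted p = 8.3e-10), so the clones did not overlap. Its partner chains COL9A3 (0.95 ± 0.079, adjusted p = 4.45e-09) and COL9A2 (0.27 ± 0.0694, adjusted p = 0.00263) were higher by less. COL9A2 exceeded COL9A1 per kb by 764 to 1228 times in A4 and by 129 to 138 times in B212.

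COL16A1 stood at 2.7 and 1.91 CPM in A4 and 8.61 and 8.58 in B212 (1.91 ± 0.141, adjusted p = 7.26e-10). COL21A1 stood at 1.57 and 1.34 against 3.1 and 2.97 (1.06 ± 0.169, adjusted p = 2.77e-05). COL15A1, a basement membrane-associated multiplexin, stood at 1.23 and 1.41 against 4.05 and 8.5 (2.19 ± 0.178, adjusted p = 3.11e-09). The other multiplexin, COL18A1, the source of endostatin, did not pass (0.05, 95% interval -0.10 to 0.19).

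All 3 transmembrane collagens tested were called, against 51.0% of all genes. COL23A1 stood at 5.68 and 4.47 CPM in A4 and 1.24 and 1.25 in B212 (-2.02 ± 0.161, adjusted p = 2.45e-09), and COL25A1 at 1.69 and 1.67 against 0.258 and 0.246 (-2.73 ± 0.268, adjusted p = 5.55e-08). Both were lower in B212 with no overlap. COL13A1, with 10 and 12 counts in A4 and 36 and 25 in B212, was higher (1.42 ± 0.419, adjusted p = 0.00811). COL28A1 was higher as well, from 4 and 9 counts in A4 to 50 and 45 in B212. Like COL5A1, it passed the count filter through the clone where it is high, and both are among the matrix genes counted as called. The beaded filament genes COL6A1 and COL6A2 were not called, with 95% intervals of -0.04 to 0.28 and 0.01 to 0.31.

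Laminins differed less. LAMC3, a gamma chain of minor laminins, was the 1 laminin with a call of at least 2-fold: 2.81 and 2.22 CPM in A4 and 7.09 and 6.89 in B212 (1.48 ± 0.136, adjusted p = 1.96e-08). LAMA3 was lower in B212, at 55.9 and 41.7 CPM against 36.2 and 25.7 (-0.66 ± 0.0779, adjusted p = 6.91e-07). LAMA5 was higher (0.38 ± 0.0751, adjusted p = 0.000293), as was LAMB2 (0.25 ± 0.073, adjusted p = 0.00715). The common chains LAMB1, LAMB3 and LAMC1 were not called, with 95% intervals of -0.09 to 0.20, -0.16 to 0.14 and -0.15 to 0.15.

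**Figure D3:**
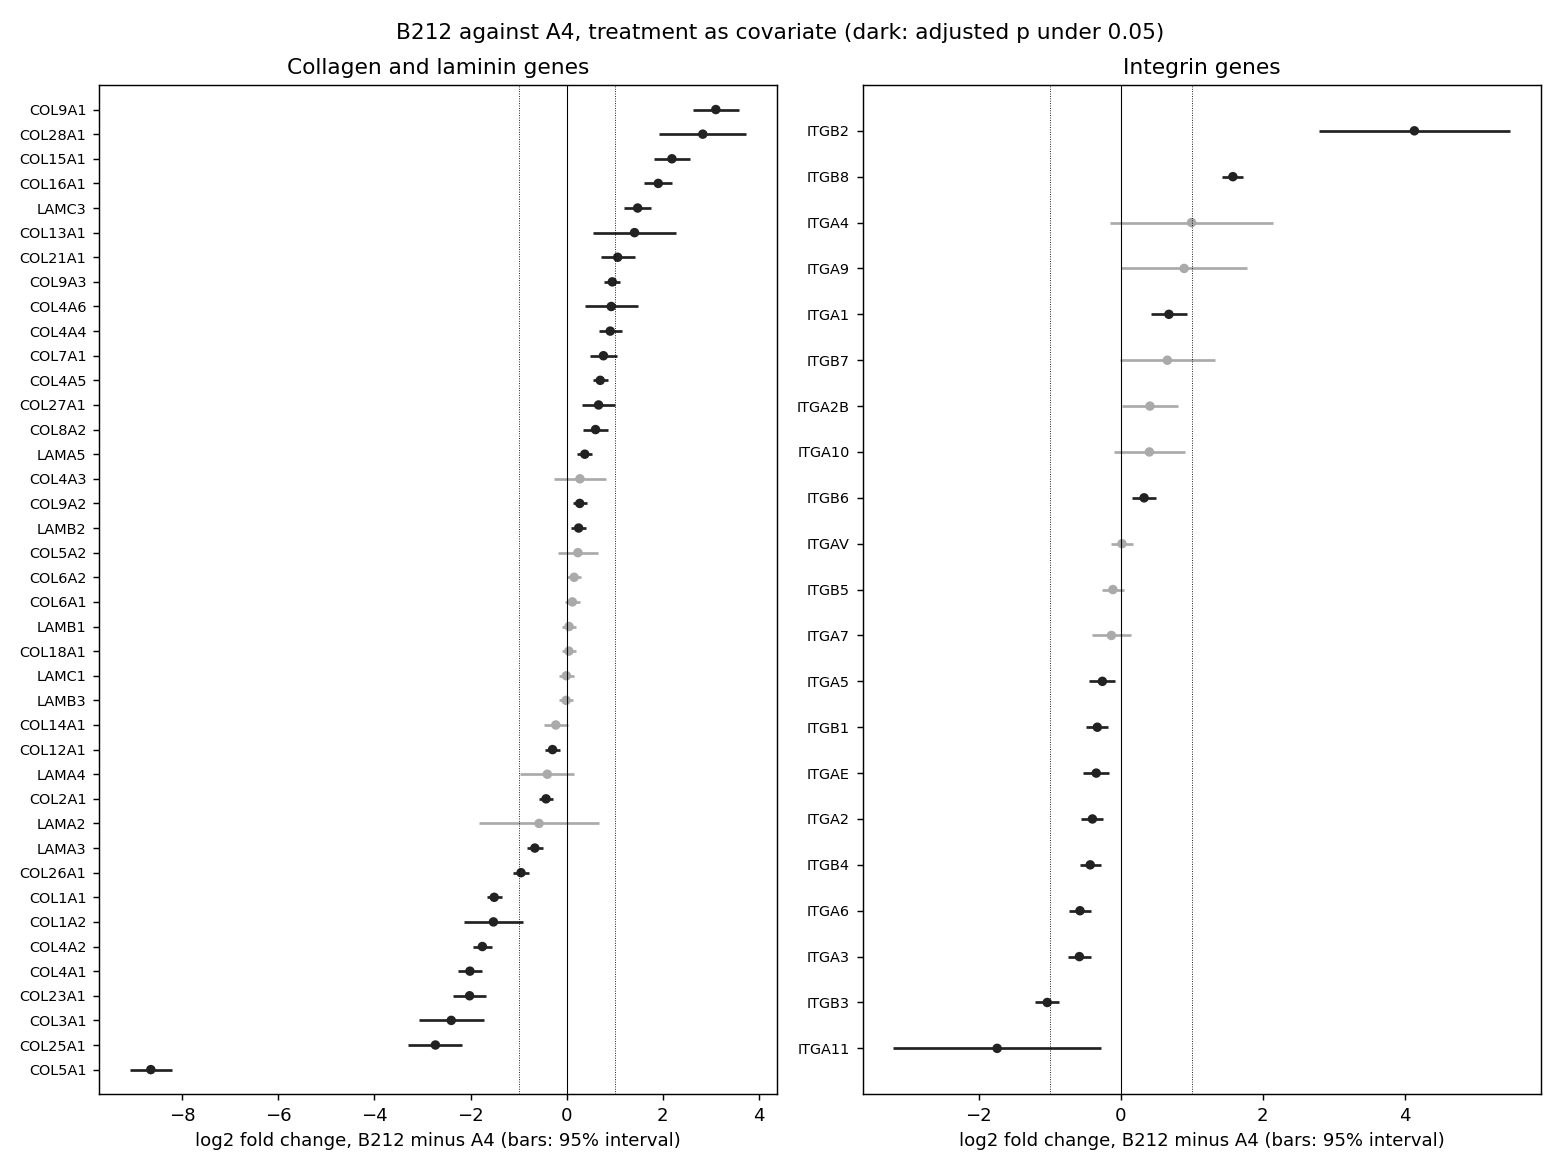
Log2 fold change of B212 against A4 with its 95% interval for 40 of the 41 matrix genes (left) and the 21 integrins (right) tested, sorted by value; dark points have an adjusted p under 0.05 and dotted lines mark 2-fold. COL5A1 lies far to the left at -8.66, and ITGB8 and ITGB3 are the well-counted integrins beyond 2-fold.

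Integrins were called in 13 of 21 cases between the clones (4 higher and 9 lower in B212), against 51.0% of all genes. Of these calls 4 were at least 2-fold (ITGB8, ITGB3, ITGB2 and ITGA11), against 11.0% of all genes. ITGB2 and ITGA11 passed the count filter only through the clone where they are high, so these 4 are not read as an excess over that share. ITGB8 had the smallest p: 101 and 78.6 CPM in A4 and 296 and 239 in B212, with no overlap (log2 fold change 1.58 ± 0.0706, adjusted p = 2.24e-13). ITGB3, the beta subunit of the vitronectin receptor, went the other way, at 54 and 35.4 CPM against 27.6 and 16.5 (-1.04 ± 0.0814, adjusted p = 1.96e-09). ITGAV, the alpha partner of both, was not called (0.02, 95% interval -0.14 to 0.17). ITGAV exceeded ITGB8 per kb by 4.24 and 5.9 times in A4 but by 1.56 and 1.84 times in B212, and ITGB3 by 3.6 and 5.99 times in A4 but by 7.63 and 12.2 times in B212. Of the other beta partners of ITGAV, ITGB6 was higher in B212 (0.33 ± 0.0793, adjusted p = 0.00173) and ITGB5 was not called (-0.11, 95% interval -0.26 to 0.04).

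Of 3 laminin-binding alpha subunits, 2 were called lower in B212, against 25.8% of all genes. ITGA6 stood at 281 and 278 CPM in A4 and 171 and 206 in B212 (-0.57 ± 0.0766, adjusted p = 3.46e-06), and ITGA3, whose product binds laminin-332 and laminin-511, at 63.2 and 48.4 against 43 and 31.7 (-0.58 ± 0.076, adjusted p = 2.59e-06). ITGB4 was also lower (-0.43 ± 0.0696, adjusted p = 3.53e-05). ITGA7, mainly known from muscle, did not pass (-0.13, 95% interval -0.40 to 0.14).

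ITGB1 stood at 1004 and 1007 CPM in A4 and 814.6 and 786.1 in B212 (-0.33 ± 0.0732, adjusted p = 0.000863), a change of 1.26-fold with no overlap. Among collagen-binding alpha subunits ITGA2 was lower (-0.40 ± 0.0743, adjusted p = 0.000161) and ITGA1 higher (0.68 ± 0.121, adjusted p = 9.95e-05), although 4.42% of the exon bases of ITGA1 are shared with PELO on the same strand. The fibronectin receptor subunit ITGA5 was lower by 1.2-fold (adjusted p = 0.0181), a call lost with DESeq2 and with library sizes alone. ITGB2, the leukocyte beta subunit, had 4 and 0 counts in A4 and 36 and 40 in B212, and ITGA11 had 13 and 17 against 0 and 9, so their calls rest on few reads and they passed the count filter through the clone where they are high. ITGB7 shares 51.4% of its exon bases with ZNF740 on the opposite strand, and the strand setting of the counting is not given in the sources used here, so its counts of 25 to 65 are uncertain. ITGB2 likewise shares 6.29% with ITGB2-AS1.

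Markers of other cell types moved between the clones too. The 6 stromal markers summed to 189.9 and 231.9 CPM in A4 and 87.7 and 81.6 in B212, nearly all of it TAGLN (log2 fold change -1.36). DCN had at most 1 count and LUM at most 5, while THY1 was higher in B212 (1.36). Of the 7 epithelial markers 5 were called higher in B212, among them KRT19 (1.01) and CLDN4 (1.28), and none lower. Over all genes 25.2% were called higher and 25.8% lower. Their part in the collagen differences was not tested. Without treatment in the model, COL2A1, COL7A1, COL9A2, COL12A1, LAMA5, LAMB2, ITGA3, ITGA5, ITGA11, ITGAE, ITGB4 and ITGB6 were among those that lost their calls, and with DESeq2 COL4A6, COL13A1 and COL27A1 did.

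Genes that act on collagens or beside them were read from the same fit, in which 25.2% of all genes were higher and 25.8% lower. Of 26 tested genes that modify, fold or cross-link collagen, 3 were higher and 13 lower in B212. LOX, the enzyme that starts cross-linking, stood at 71.2 and 66.5 CPM in A4 and 15.4 and 12.1 in B212 (-2.33 ± 0.0865, adjusted p = 1.29e-14). LOXL2 of the same family (-1.63, adjusted p = 6.93e-08) and PCOLCE2, an enhancer of procollagen cleavage (-1.13, adjusted p = 6.14e-09), were lower as well, and COLGALT2, which adds galactose to collagen, was higher (1.36, adjusted p = 4.06e-11).

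Of 15 tested genes for other matrix proteins, 6 were higher and 7 lower. NID1, which bridges laminin and type IV collagen, was lower (-1.62, adjusted p = 1.36e-10), as were FBLN1 (-1.35, adjusted p = 1.44e-11) and THBS1 (-1.46, adjusted p = 1.15e-10). HSPG2, the basement membrane proteoglycan perlecan, was higher (1.20, adjusted p = 2.84e-11). The focal adhesion list had 2 higher and 9 lower of 22, close to the share called over all genes, with TNS1 higher (1.00, adjusted p = 1.82e-08) and the kindlin gene FERMT1 lower (-1.14, adjusted p = 2.71e-06). Among 13 matrix receptors other than integrins, 3 were higher and 6 lower, and CD44, the hyaluronan receptor, was lower (-1.14, adjusted p = 8.4e-11), as was GPC1, a cell-surface proteoglycan (-1.45, adjusted p = 5.91e-12).

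For estradiol, the fit planned on treatment alone called none of the 62 members and 0.0% of all genes. Under this fit 150 of 15599 genes had an unadjusted p under 0.05 by edgeR, among them 1 matrix gene (LAMB1) and no integrin, and DESeq2 without the clone also called none of the members. The adjusted p was 1.00 for every member. Named by smallest unadjusted p, the matrix genes below 0 were LAMB1 (log2 fold change -0.29 ± 0.11 SE), COL18A1 (-0.28 ± 0.11) and LAMA2 (-1.50 ± 0.75), and those above 0 were COL7A1 (0.54 ± 0.45), COL15A1 (0.91 ± 1.04) and LAMA4 (0.20 ± 0.38). LAMA2 had the lowest mean level of the tested matrix genes and passed the count filter through the DMSO libraries, where it is higher, so its value is of little weight. For integrins the genes so named were ITGB4 (-0.59 ± 0.23), ITGB5 (-0.24 ± 0.12) and ITGA3 (-0.41 ± 0.3) below 0, and ITGAE (0.48 ± 0.22), ITGA9 (0.50 ± 0.62) and ITGA10 (0.33 ± 0.42) above. In this fit the distance between the clones counts as error: of the variance of log2 CPM, 97.1% lay between the clones for collagens, 57.1% for laminins and 75.8% for integrins, against 84.1% over all genes. These shares sum squares over genes, so COL5A1 weighs heavily in that of the collagens. Gene by gene, the clone term exceeded the treatment term in 27 of 31 collagens, 5 of 10 laminins and 17 of 21 integrins, against 11151 of 15599 genes.

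With the clone as a block, so that each E2 library was compared with the DMSO library of the same tag, 11 of 41 matrix genes and 6 of 21 integrins were called, against 9.56% of all genes. Of the matrix genes 9 fell and 2 rose with E2, and of the integrins 5 fell and 1 rose, while over all genes 6.13% rose and 3.44% fell. With library sizes alone, 910 of 1685 calls over all genes were higher with E2, and the matrix genes gave 2 higher and 12 lower. Each of the 17 changed in the same direction in both clones, and none reached 2-fold. The block fit takes disagreement between the clones as its error, so the shared direction follows largely from being called. The median log2 fold change was -0.21 for matrix genes and -0.09 for integrins, against -0.01 over all genes. Counted without a test, 28 matrix genes were lower with E2 in both clones, 6 higher in both and 7 opposite, and for integrins these numbers were 8, 4 and 9. Over all 15599 genes they were 5743, 5196 and 4649, so the integrins lower in both were near the share over all genes.

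Length and base composition moved with these values. Tested matrix genes had a median transcript of 6133 bases with 55.4% GC and integrins one of 4675 bases with 52.3%, against 3291.5 bases and 48.8% over all genes. A trend over length and GC was fitted in each library to the deviation of genes from their mean over the 4 libraries. With this trend removed, 6 matrix genes (4 lower, 2 higher) and 5 integrins (4 lower, 1 higher) were called for E2. Over all genes 3.55% were then higher and 2.15% lower, and the matrix median moved to -0.10. Those that lost their calls included COL18A1, COL2A1, COL4A2, LAMA5 and ITGB5, and all members called after the correction had been called before it.

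Genes of laminin-332 and its receptors were among the members that fell with E2 in the block fit. LAMA3 stood at 55.9 CPM with vehicle and 41.7 with E2 in A4, and at 36.2 and 25.7 in B212. It fell in both clones (-0.46 ± 0.0778, adjusted p = 0.00164 by edgeR with the block; -0.33 with the trend removed, adjusted p = 0.00473). LAMB3, its beta chain partner, did not pass (-0.12, 95% interval -0.26 to 0.03). ITGB4 fell from 215 to 147 CPM in A4 and from 166 to 105 in B212, so that both E2 libraries were below both DMSO libraries (-0.60 ± 0.0697, adjusted p = 5.24e-05; -0.42 with the trend removed, adjusted p = 0.00086). ITGA6, its partner, was not called (0.13, 95% interval -0.03 to 0.29), and the ratio of ITGA6 to ITGB4 per kb was 1.38 with vehicle and 1.99 with E2 in A4, and 1.09 and 2.06 in B212.

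ITGA3 fell from 63.2 to 48.4 CPM in A4 and from 43 to 31.7 in B212 (-0.41 ± 0.0759, adjusted p = 0.00292; -0.26 with the trend removed, adjusted p = 0.0266). ITGB3 had the largest fall of the called members, from 54 to 35.4 CPM in A4 and from 27.6 to 16.5 in B212 (-0.67 ± 0.0811, adjusted p = 7.45e-05; -0.59 with the trend removed, adjusted p = 6.4e-05). For ITGB3 the clones differed so much that the E2 value of A4 was above the DMSO value of B212. ITGB8 fell by about the same log2 amount in both clones, -0.35 in A4 and -0.31 in B212 (adjusted p = 0.00648, and 0.00103 with the trend removed). ITGB5 fell by 0.24 on the log2 scale (adjusted p = 0.0396; 0.208 with the trend removed, 0.0963 with DESeq2). Neither ITGAV (0.03, 95% interval -0.13 to 0.18) nor ITGB1 (-0.02, 95% interval -0.18 to 0.13) was called.

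ITGAE, the alpha E subunit that on T cells binds E-cadherin, was the 1 integrin that rose, from 21.2 to 31.7 CPM in A4 and from 18.1 to 23.1 in B212. Both E2 libraries were above both DMSO libraries (0.47 ± 0.0873, adjusted p = 0.00321; 0.57 with the trend removed, adjusted p = 0.00029). Its usual partner ITGB7 had 25 to 65 counts and did not pass (-0.12, 95% interval -0.79 to 0.55). The leukocyte markers PTPRC and CD3E had at most 37 counts and 0 counts.

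**Figure D4:**
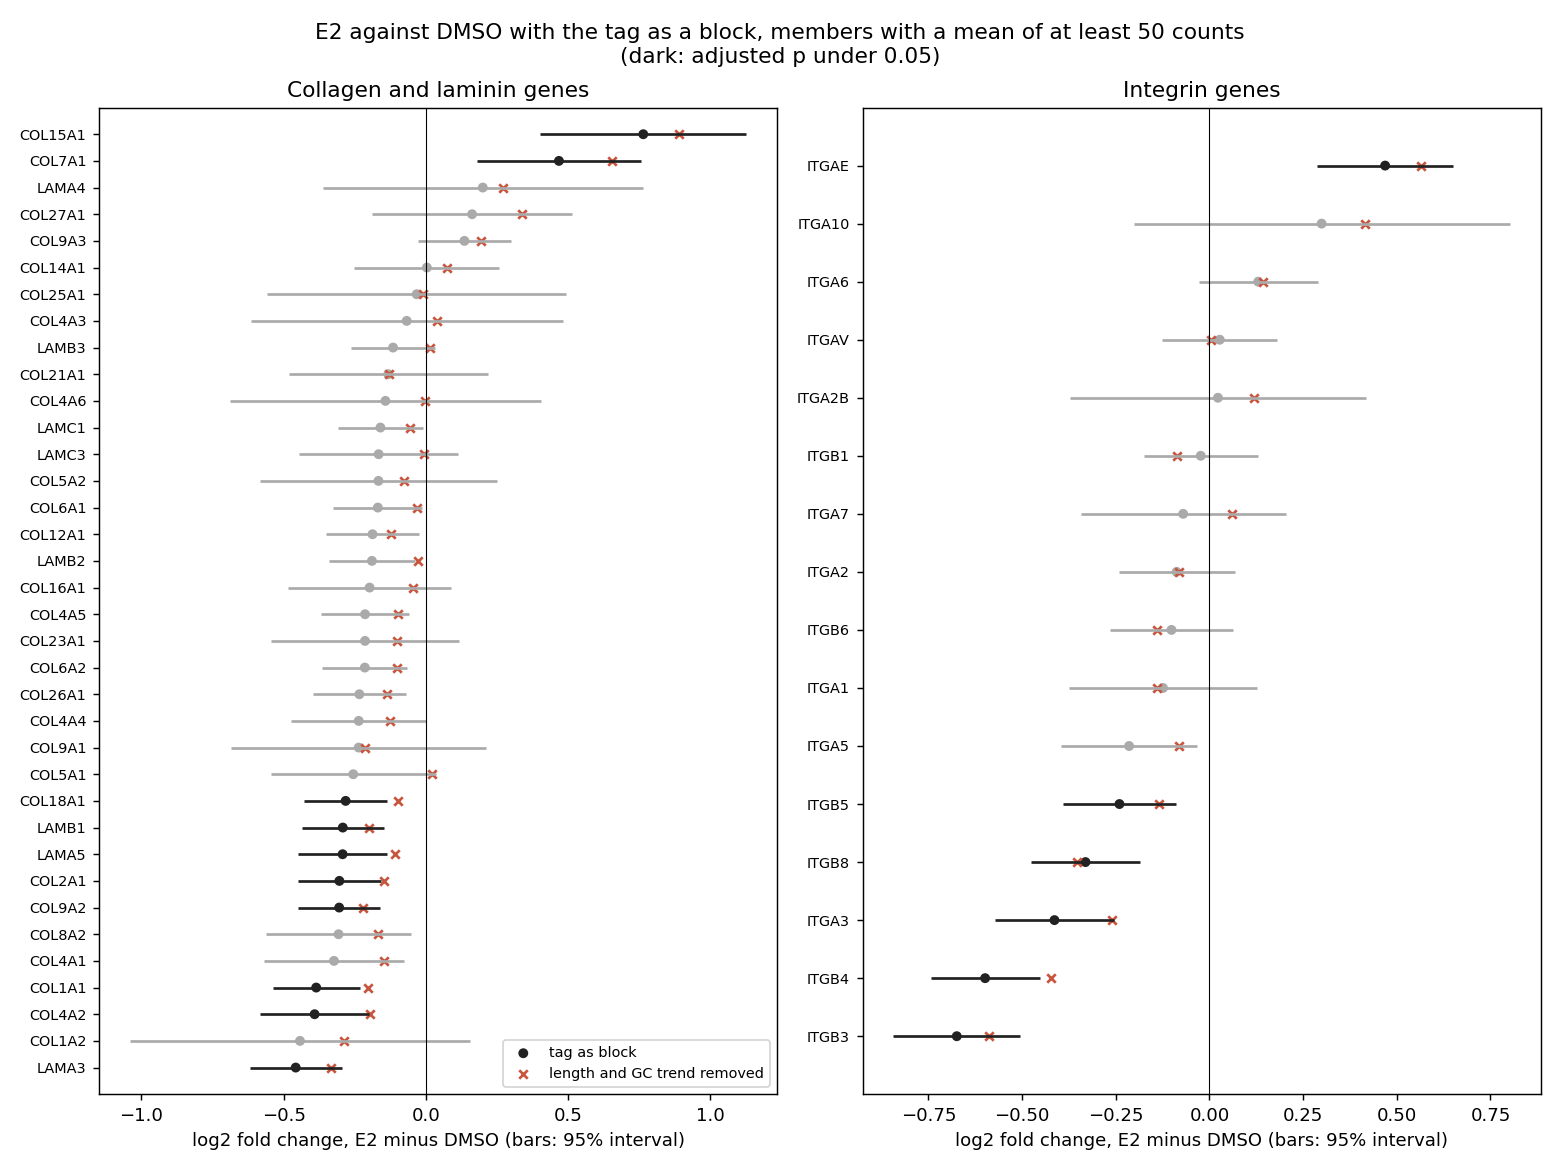
Log2 fold change of E2 against DMSO with the clone as a block (points with 95% intervals; dark, adjusted p under 0.05) and with the length and GC trend taken out (red crosses), for members with a mean of at least 50 counts, except 1 matrix gene. Most matrix genes lie below 0 and most of their crosses lie to the right of the points; for ITGB4 the cross lies at -0.42 against -0.60 for the point.

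Of the fibrillar collagens 2 of 7 fell, and of the type IV genes 1 of 6, against 3.44% of all genes in the block fit. COL1A1 fell from 128 to 92.4 CPM in A4 and from 42.4 to 34.5 in B212 (-0.39 ± 0.0736, adjusted p = 0.00393; -0.20 with the trend removed, adjusted p = 0.044). COL9A2 fell from 232 to 190 and from 284 to 227, and here both E2 libraries were below both DMSO libraries (-0.30 ± 0.0694, adjusted p = 0.0103; -0.22 with the trend removed, adjusted p = 0.0376). COL2A1 fell from 160 to 123 and from 113 to 96.3 (-0.30 ± 0.0701, adjusted p = 0.0111; 0.136 with the trend removed). COL4A2 fell from 29.1 to 21.7 and from 8.43 to 6.6 (-0.39 ± 0.0924, adjusted p = 0.0127; 0.169 with the trend removed). COL4A1, its head-to-head partner, had a similar value that did not pass (-0.32 ± 0.118, adjusted p = 0.0879). The remaining type IV genes were not called, with log2 fold changes of -0.07 to -0.24.

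Among basement membrane laminins, LAMB1 fell from 223 to 179 CPM and from 227 to 189 (-0.29 ± 0.0692, adjusted p = 0.0128; -0.20 with the trend removed, adjusted p = 0.0468). LAMA5 fell from 251 to 188 and from 299 to 267 (-0.29 ± 0.0751, adjusted p = 0.0195; 0.294 with the trend removed). COL18A1 fell from 128 to 101 and from 127 to 109 (-0.28 ± 0.0695, adjusted p = 0.0158; 0.342 with the trend removed). For LAMB1 and COL18A1, both E2 libraries were below both DMSO libraries, whereas for LAMA5 the clones overlapped. LAMC1, which shares trimers with LAMB1 and LAMA5, was not called (-0.16, 95% interval -0.31 to -0.01; adjusted p = 0.166).

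Against this direction, COL15A1 and COL7A1 rose, and in both most of the change came from B212. COL15A1 went from 1.23 to 1.41 CPM in A4 and from 4.05 to 8.5 in B212 (0.76 ± 0.174, adjusted p = 0.0102; 0.89 with the trend removed, adjusted p = 0.00216). COL7A1, the anchoring fibril collagen that ties the basement membrane to the stroma below, went from 5.39 to 5.69 in A4 and from 7.06 to 12.4 in B212 (0.47 ± 0.138, adjusted p = 0.0383; 0.66 with the trend removed, adjusted p = 0.00199). The log2 ratios within the clones were 0.20 and 1.06 for COL15A1 and 0.08 and 0.81 for COL7A1. With 1 library per clone and treatment, the difference between the clones in this response could not be tested. DESeq2 with the same block filtered both out and gave no adjusted p for them, and COL7A1 lost its call with DESeq2 size factors (adjusted p = 0.0952).

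**Figure D5:**
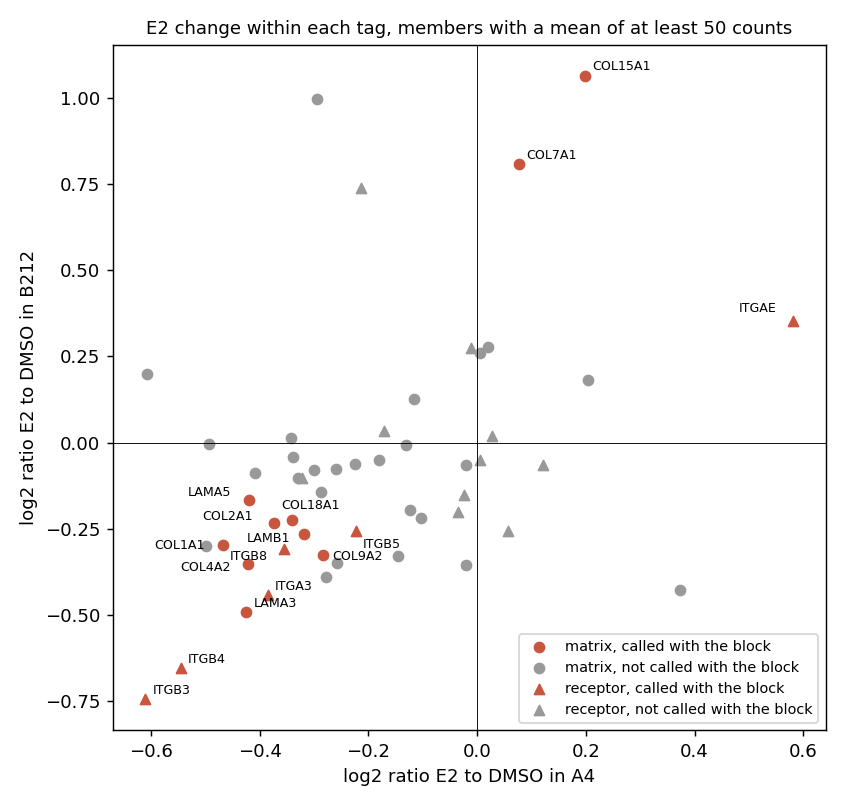
Log2 ratio of E2 to DMSO in A4 (horizontal) and in B212 (vertical), from CPM with a prior count of 2, for members with a mean of at least 50 counts, except 1 matrix gene; red points were called with the clone as a block. The called members shown that fell sit in the lower left quadrant and COL15A1, COL7A1 and ITGAE in the upper right.

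The surrounding genes gave mixed counts with E2 under the block, where 6.13% of all genes rose and 3.44% fell. Of 26 genes for making collagen, 1 rose and none fell: PPIB, a prolyl isomerase that folds collagen (0.23, adjusted p = 0.0447). Of 15 other matrix genes 1 rose and 6 fell. THBS1 rose from 1243 to 1591 CPM in A4 and from 378 to 692 in B212 (0.61 ± 0.0939, adjusted p = 0.000911; 0.68 with the trend removed), and PXDN, which cross-links type IV collagen (-0.51, adjusted p = 0.000963), and TNC (-0.38, adjusted p = 0.00508) fell.

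Among 22 focal adhesion genes 7 fell and none rose, with PXN (-0.33, adjusted p = 0.00661), the plectin gene PLEC (-0.36, adjusted p = 0.00675) and the talin gene TLN1 (-0.32, adjusted p = 0.00841) the smallest in p. Of 13 other matrix receptors HMMR rose (0.30, adjusted p = 0.0218) and SDC3 fell (-0.27, adjusted p = 0.0326). With the trend removed, the calls were 0 higher and 1 lower for collagen making, 1 and 2 for other matrix, 0 and 2 for focal adhesion, and none for the other receptors. Over all genes 3.55% were then higher and 2.15% lower. No stromal marker was called with E2, while KRT18 (-0.27, adjusted p = 0.023) and PAX8 (-0.25, adjusted p = 0.0358) of the epithelial markers and VWF (-0.49, adjusted p = 0.0441) of the endothelial ones fell.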

How the data were processed

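The 4 poly(A)-selected stranded libraries were made from ER-Y537S Ishikawa clones, per the labels' protocols. The deposited values are raw read counts per gene symbol. The submitters' processing notes name HISAT2, SAMtools, featureCounts, DESeq2 and the build hg19, without versions, and the strand setting is not given in the sources used here. Another 4 columns matched no sample and were not used. Counts were tested with edgeR 4.0.16 (R 4.3.3; filterByExpr with a minimum count of 10, TMM, quasi-likelihood test, Benjamini-Hochberg threshold 0.05 over 15599 genes). E2 was fitted without a block, and with the column tag as a replicate block as the alternative. Libraries with the same tag deviated together from their group means (r = 0.87 over genes), and the tag is read as the clone, so the block is printed where it changes a call. The clone comparison had treatment as covariate. Standard errors and 95% intervals come from the quasi-likelihood fit. Lengths and GC are of 1 GENCODE 29 transcript a symbol, found for 93.5% of tested genes and all 82 members. The length and GC trend was fitted with mgcv 1.9.3 to each library's deviation from the gene's mean, and entered both the E2 and the clone fit as offsets. Other alternatives were DESeq2 1.42.0, other scalings and filters, and leaving out each library. A depth of 71575816 to 85222856 counts a library leaves genes under about 50 counts imprecise. Members, lists and tests were chosen with earlier results of these data known. Named were the called members with a change of at least 2-fold and a mean of at least 50 counts between the clones, those called for E2 in either fit or else the 3 smallest p-values in each direction, the 5 highest per kb of each side, and the type IV pairs, the chains of 3 laminins, ITGB1 and ITGB4 regardless of values. Of each other list, up to 4 genes were named for the clones and 3 for E2. In the counts, 1 matrix gene is included that is not reported here. Other genes named were chosen after their values were seen.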

Additional observations from a re-analysis of the deposited data

Results flagged for a closer look

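The E2 library lay on opposite sides of the DMSO library in the 2 clones for 7 of 41 matrix genes and 9 of 21 integrins. Over all genes this held for 4649 of 15599. Values are given for 7 of these members, with 1 library per clone and treatment, and the difference was not tested. COL4A6, COL3A1 and COL13A1, named above, also lay on opposite sides. COL5A1 had log2 ratios of -0.29 in A4 and 1.00 in B212 (B212 minus A4: 1.29), the second from 3 and 7 counts. ITGA10, a collagen-binding subunit, had -0.21 and 0.74 (0.95), from 77 to 126 counts a library. COL9A1 had 0.37 and -0.43 (-0.80), with 23 and 34 counts in A4. COL23A1 had -0.34 and 0.01 (0.36), and ITGA6 had -0.01 and 0.27 (0.29). For ITGAV the values were 0.12 and -0.07 (-0.19), and for ITGB1 they were 0.00 and -0.05 (-0.056). None of the 17 members called for E2 with the clone as a block lay on opposite sides, which follows largely from how that fit calls genes.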

How the results depend on the processing

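Without the replicate block no member was called for E2 by edgeR or DESeq2. With the tag as replicate block, matrix genes gave 2 higher and 9 lower calls, and the same with no filter or with at least 10 counts in every library (both added after seeing the data). Library sizes only gave 2 and 12, removal of the length and GC trend 2 and 4, and DESeq2 size factors 1 and 8. DESeq2 with the block gave 0 higher and 7 lower, with no adjusted p for 24 of the 41 matrix genes and 9 of the 21 integrins (COL15A1, COL4A2 and COL7A1 among them). Over all genes the calls fell from 1492 (9.56%) to 717 (4.6%) with DESeq2 size factors and to 562 (3.6%) with DESeq2. Integrins gave 1 higher call in each of these, and 5 lower, or 4 with DESeq2, its size factors or the trend removed. With the block, no call reached 2-fold. Leaving out 1 library without the block called no member, and unbalanced the clones, so that values ranged from -1.32 to 0.58 for COL1A1, -1.52 to 0.75 for COL4A2, -0.90 to 2.00 for COL15A1, -0.13 to 0.97 for COL7A1 and -1.33 to 0.65 for ITGB8; with the block, leaving out 1 library leaves the change within a single clone. Between the clones, the limit of 2-fold left 7 higher and 8 lower matrix genes and 2 and 2 integrins. Without the treatment term the lower integrins went from 9 to 4. The other alternatives kept these counts within 1.5 times. Requiring 10 counts in every library removed COL5A1, COL28A1, ITGB2 and ITGA11 from the test. Leaving out 1 library leaves no residual degrees of freedom in the clone fit, so it gave values with no calls, all in the same direction for the 14 named members. The levels' highest 5 kept 4 matrix and 4 receptor genes with median transcript lengths, and the counts of members by direction within the clones (28, 6 and 7; 8, 4 and 9) were the same with a prior count of 0.5. The median of all genes between the clones shifted from 0.00 to 0.07 with library sizes only and to -0.06 with the trend removed.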
